A study of Mus musculus with 30 samples.

Results

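Annexins and S100 proteins are calcium-binding proteins that often work together, and 10 of their genes were examined in kidneys of mice given aristolochic acid I (AAI): Anxa1, Anxa2, Anxa3, Anxa5, S100a4, S100a6, S100a8, S100a9, S100a10 and S100a11. They were taken by gene symbol through the annotation of the array, as a list chosen with earlier results of these data known. Each of the 10 has 1 transcript cluster among the 22139 genes and unnamed clusters tested. The series holds 30 Clariom S arrays, 1 per kidney RNA sample, in 6 groups of 5. Male C57BL/6 mice of 9 to 11 weeks were Trp53(+/+), Trp53(+/-) or Trp53(-/-), the modified allele carrying a neomycin cassette in place of part of the gene in every cell of the animal, so that Trp53(+/-) mice keep 1 intact copy and Trp53(-/-) mice none. Each genotype received AAI, a nitrophenanthrene acid of Aristolochia plants that damages the proximal tubule, at 3.5 mg/kg body weight by daily intraperitoneal injection for 6 days, or water only, and kidneys were taken 24 h after the last injection. The labels name the last genotype homozygous, and the series design gives it as Trp53(-/-).

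All signals below are on the log2 scale, where 1 unit is 2-fold, and a fold change always compares 1 gene with itself, since probe brightness prevents comparison of levels between genes. RNA came from a portion of whole kidney, and fewer cells of a type and less RNA per cell cannot be told apart. The arrays were alike in overall signal (median of 5.89 to 5.99 per array) and in likeness to their own group (median correlation of 0.978 to 0.987). Markers of the proximal tubule were measured in all groups and averaged 11.04, 10.69 and 10.63 in the water kidneys of the 3 genotypes. The signal of Trp53 itself was not analysed here. cDNA was made in a batch of 14 samples (every Trp53(+/-) AAI kidney, every Trp53(+/+) water kidney and 4 of the Trp53(+/+) AAI kidneys) and a batch of 16 (all Trp53(+/-) water kidneys, both Trp53(-/-) groups and 1 Trp53(+/+) AAI kidney that is not named). In Trp53(+/-) kidneys batch and treatment therefore cannot be told apart, nor can batch and genotype between the Trp53(+/+) water kidneys and the other water kidneys, whereas the Trp53(-/-) comparison of AAI with water lies within 1 batch. Nothing in the labels says more of the 5 samples of a group than that they are replicates, so p-values measure the spread between these samples.

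Annexins bind negatively charged phospholipids when calcium rises, and take part in membrane repair, membrane traffic and the binding of dying cells. S100 proteins are small EF-hand proteins, mostly dimers, that change shape on binding calcium and then bind a partner inside the cell, while some are released and act on receptors such as Tlr4 and Ager. The families meet in defined complexes, as S100a10 holds a pair of Anxa2 chains at the membrane and S100a11 binds Anxa1. In the kidney, several of these genes are known to be raised in damaged tubules, fibroblasts or infiltrating leukocytes, and S100a8 with S100a9 is abundant in neutrophils.

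Since most of the 10 genes moved together, the sequence just upstream of their start sites was searched for short motifs. RefSeq promoter sequence (GRCm38.p6) was at hand for 8 of the 10, all except Anxa3 and S100a10, and the 250 bases before the start were read on both strands. The motifs were the AP-1 site TGANTCA (found in 6.75% of 32851 promoters of that length), the C/EBP site TTGCNNAA (9.56%), the Sp1 site GGGCGG (32.7%), the cyclic AMP element TGACGTCA (1.55%), the TATA box TATAAA (12.4%), the 10-base unit of the p53 response element (7.13%), the NF-kappaB site (3.9%) and the serum response factor CArG box (1.47%). An AP-1 match lay in the Anxa2 promoter, starting 95 bases before the start site, and 2 lay in that of S100a11, at 136 and 38 bases. TATA boxes were found in Anxa1, Anxa2, S100a4 and S100a8, C/EBP matches in Anxa1 and S100a9, p53 unit matches in Anxa1 and S100a9, and Sp1 matches in Anxa2 (3), S100a9 (1) and S100a11 (3). Anxa5 and S100a6 held none of the 8 motifs, and no promoter of the 8 genes held a cyclic AMP element, an NF-kappaB site or a CArG box. A match describes these letters only. The sequences shown are those of the 6 genes with a match marked in capitals, and of S100a6, the gene with the largest rise, which had none, 5′ to 3′ up to the base before the start site. Capitals mark the AP-1, C/EBP, TATA box and p53 matches (Sp1 matches are left in lower case, and in Anxa1 the C/EBP and p53 matches share a base).
Anxa1 (chr19:20390672-20390921, minus strand): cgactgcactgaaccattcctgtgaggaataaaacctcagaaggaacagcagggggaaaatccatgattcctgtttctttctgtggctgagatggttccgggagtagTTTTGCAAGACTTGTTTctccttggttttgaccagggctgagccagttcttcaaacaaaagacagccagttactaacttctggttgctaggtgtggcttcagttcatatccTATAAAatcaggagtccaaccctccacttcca
Anxa2 (chr9:69453433-69453682, plus strand): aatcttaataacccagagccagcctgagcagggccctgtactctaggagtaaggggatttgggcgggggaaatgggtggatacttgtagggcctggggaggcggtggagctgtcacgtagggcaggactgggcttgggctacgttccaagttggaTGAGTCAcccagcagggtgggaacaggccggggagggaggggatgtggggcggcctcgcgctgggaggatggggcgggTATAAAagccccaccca
S100a4 (chr3:90603520-90603769, plus strand): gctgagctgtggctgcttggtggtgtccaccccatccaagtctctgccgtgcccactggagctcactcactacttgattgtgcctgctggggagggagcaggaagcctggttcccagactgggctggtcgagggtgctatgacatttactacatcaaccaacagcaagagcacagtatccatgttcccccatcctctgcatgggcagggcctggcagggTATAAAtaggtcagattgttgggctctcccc
S100a6 (chr3:90612644-90612893, plus strand): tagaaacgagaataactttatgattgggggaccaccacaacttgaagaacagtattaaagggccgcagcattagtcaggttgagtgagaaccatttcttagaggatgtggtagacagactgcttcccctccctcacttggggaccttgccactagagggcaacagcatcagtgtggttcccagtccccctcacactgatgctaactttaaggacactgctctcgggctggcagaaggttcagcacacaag
S100a11 (chr3:93520246-93520495, plus strand): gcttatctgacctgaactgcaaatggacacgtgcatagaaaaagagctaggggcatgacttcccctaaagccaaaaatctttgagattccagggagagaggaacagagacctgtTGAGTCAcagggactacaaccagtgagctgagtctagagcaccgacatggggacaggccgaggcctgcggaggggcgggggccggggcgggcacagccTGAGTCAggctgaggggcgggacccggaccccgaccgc
S100a8 (chr3:90668821-90669070, plus strand): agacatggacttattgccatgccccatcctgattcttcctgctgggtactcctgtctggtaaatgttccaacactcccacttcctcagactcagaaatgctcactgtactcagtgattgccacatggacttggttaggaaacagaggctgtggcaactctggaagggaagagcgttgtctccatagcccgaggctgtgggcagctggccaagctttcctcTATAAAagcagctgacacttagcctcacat
S100a9 (chr3:90695722-90695971, minus strand): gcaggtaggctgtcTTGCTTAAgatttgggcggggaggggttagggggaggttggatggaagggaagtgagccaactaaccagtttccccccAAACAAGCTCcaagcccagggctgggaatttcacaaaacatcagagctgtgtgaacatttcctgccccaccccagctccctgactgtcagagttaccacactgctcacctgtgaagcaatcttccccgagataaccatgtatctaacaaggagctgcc

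AAI raised 8 of the 10 genes at least 2-fold in Trp53(+/+) kidneys, 4 in Trp53(+/-) kidneys and 8 in Trp53(-/-) kidneys, and lowered none. A gene was counted as raised at an adjusted p under 0.05 (limma, Benjamini-Hochberg adjustment over all features tested) and a change of at least 2-fold. Among all genes tested 3.37%, 0.7% and 3.33% were raised by that rule in the 3 genotypes. The 10 genes were chosen with earlier results of these data known, so such shares describe the list and do not test it. The median log2 change of the 10 genes was 1.88 (Trp53(+/+)), 0.89 (Trp53(+/-)) and 1.89 (Trp53(-/-)), beside -0.03, 0.00 and -0.01 over all genes. Without the minimum fold, 8, 8 and 10 of the 10 genes rose, against 15.2%, 3.53% and 15.5% of all genes. Every AAI array lay above every water array for 8 genes in Trp53(+/+) kidneys (9.71% of all genes), for 7 in Trp53(+/-) kidneys (4.09%) and for 8 in Trp53(-/-) kidneys (10.5%). Replicate 1 of the Trp53(+/+) AAI group was the highest of its group for 7 of the 10 genes, and without it 8 genes were still raised 2-fold in that genotype. Replicate 4 was the highest for 7 genes in the Trp53(+/-) AAI group and for 8 in the Trp53(-/-) AAI group. The groups overlapped for S100a8 and S100a9 in each genotype, and for Anxa1 in Trp53(+/-) kidneys.

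**Figure D1:**
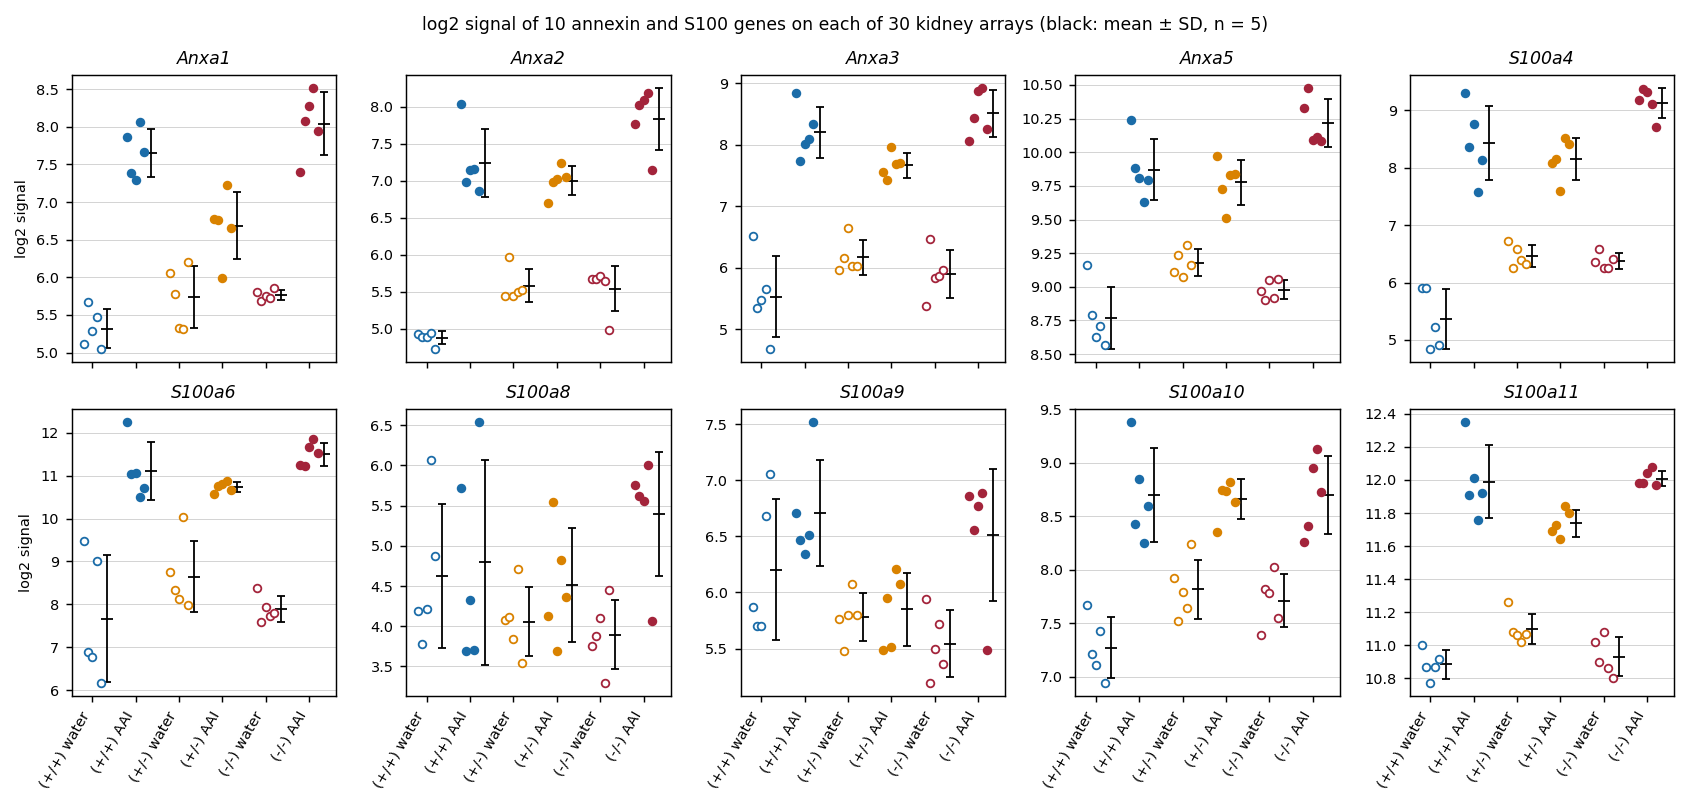
The log2 signal (vertical axis of each panel) of the 10 genes is plotted for each of the 30 arrays by group, with open points for water, filled points for AAI and black bars for the mean ± SD of 5 arrays. In 8 panels the AAI points of Trp53(+/+) and Trp53(-/-) kidneys lie above all water points of the same genotype, while in the S100a8 and S100a9 panels they overlap.

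Of the annexins, Anxa1, a glucocorticoid-induced protein known for limiting leukocyte recruitment through formyl peptide receptors, rose 5.04-fold in Trp53(+/+) kidneys, 1.92-fold in Trp53(+/-) kidneys and 4.83-fold in Trp53(-/-) kidneys. In Trp53(+/+) kidneys Anxa1 measured 5.05, 5.12, 5.29, 5.47 and 5.67 after water and 7.29, 7.39, 7.66, 7.86 and 8.06 after AAI. Trp53(+/-) kidneys gave 5.32, 5.33, 5.78, 6.06 and 6.21 against 5.99, 6.66, 6.76, 6.78 and 7.23. Trp53(-/-) kidneys gave 5.69, 5.73, 5.75, 5.81 and 5.86 against 7.4, 7.94, 8.07, 8.28 and 8.52. The Trp53(+/-) AAI kidneys were the lowest of the AAI groups, and 1 of them (5.99) lay among its water kidneys. The log2 changes were 2.33 ± 0.20 (SE, adjusted p = 1.02e-10, n = 5 against 5), 0.94 ± 0.20 (adjusted p = 0.00226, limma, short of 2-fold) and 2.27 ± 0.20 (adjusted p = 1.74e-10).

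Anxa2, the annexin that S100a10 carries to the cell surface, where the complex binds plasminogen and its activator, rose 5.13-fold, 2.68-fold and 4.91-fold. In Trp53(+/+) kidneys Anxa2 measured 4.73, 4.89, 4.89, 4.93 and 4.95 after water and 6.86, 6.99, 7.15, 7.16 and 8.03 after AAI. In Trp53(+/-) kidneys the values were 5.45, 5.45, 5.5, 5.53 and 5.97 against 6.7, 6.98, 7.03, 7.05 and 7.24. The Trp53(-/-) values were 4.99, 5.64, 5.68, 5.68 and 5.72 against 7.15, 7.76, 8.02, 8.09 and 8.18. The groups were far apart in each genotype, with the highest Trp53(+/+) AAI array and the lowest Trp53(-/-) water array each standing away from the other 4. The log2 changes were 2.36 ± 0.18 (SE, adjusted p = 1.48e-11), 1.42 ± 0.18 (adjusted p = 1.41e-05) and 2.30 ± 0.18 (adjusted p = 2.64e-11, limma).

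Anxa3, a less studied annexin found in myeloid cells and epithelia, rose 6.38-fold, 2.83-fold and 6.11-fold, the largest changes among these annexins in each genotype. In Trp53(+/+) kidneys Anxa3 measured 4.68, 5.34, 5.48, 5.65 and 6.51 after water and 7.74, 8.01, 8.1, 8.33 and 8.84 after AAI. For Trp53(+/-) they were 5.97, 6.02, 6.03, 6.16 and 6.65 against 7.42, 7.56, 7.69, 7.7 and 7.97. For Trp53(-/-) they were 5.37, 5.83, 5.86, 5.97 and 6.47 against 8.06, 8.25, 8.44, 8.88 and 8.93. The water arrays of Trp53(+/+) kidneys were spread over 4.68 to 6.51, yet none reached the lowest AAI array. The log2 changes were 2.67 ± 0.24 (SE, adjusted p = 1.83e-10), 1.50 ± 0.24 (adjusted p = 9.68e-05) and 2.61 ± 0.24 (adjusted p = 2.91e-10, limma).

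Anxa5, the phosphatidylserine-binding annexin used to stain dying cells, rose less. Its water arrays lay at 8.57 to 9.16 (Trp53(+/+)), 9.07 to 9.31 (Trp53(+/-)) and 8.90 to 9.06 (Trp53(-/-)). Its AAI arrays lay at 9.63 to 10.24, 9.51 to 9.97 and 10.08 to 10.48. No AAI array reached down to a water array of its genotype. The rise was 2.15-fold in Trp53(+/+) (log2 change of 1.10 ± 0.12 (SE), adjusted p = 4.46e-09), 1.51-fold in Trp53(+/-) (0.60 ± 0.12, adjusted p = 0.000808, short of 2-fold) and 2.36-fold in Trp53(-/-) kidneys (1.24 ± 0.12, adjusted p = 4.31e-10, limma).

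S100a10 and S100a11, the S100 partners of Anxa2 and Anxa1, followed. S100a10 lay at 6.94 to 7.67 after water and 8.25 to 9.38 after AAI in Trp53(+/+), at 7.52 to 8.24 and 8.35 to 8.82 in Trp53(+/-), and at 7.39 to 8.03 and 8.26 to 9.13 in Trp53(-/-) kidneys. The groups were separate in each genotype, by the narrowest margin (8.24 to 8.35) in Trp53(+/-). Its rise was 2.69-fold in Trp53(+/+) kidneys (log2 change of 1.43 ± 0.18 (SE), adjusted p = 2.11e-07), 1.79-fold in Trp53(+/-) (adjusted p = 0.00262) and 1.98-fold in Trp53(-/-) kidneys (0.99 ± 0.18, adjusted p = 8.15e-05, limma), so that the last fell just short of 2-fold. It passed 2-fold without Trp53(-/-) AAI replicate 1 or 2 or water replicate 2, 3 or 4, with a log2 change of up to 1.09. S100a11 lay at 10.77 to 11.00 after water and 11.76 to 12.35 after AAI in Trp53(+/+), at 11.02 to 11.26 and 11.64 to 11.84 in Trp53(+/-), and at 10.80 to 11.08 and 11.97 to 12.08 in Trp53(-/-) kidneys. The SD was between 0.05 and 0.22 in every group, and the rises of 2.15-fold, 1.56-fold and 2.11-fold had adjusted p-values of 5.18e-11, 3.41e-05 and 8.49e-11 (limma).

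S100a4, a myosin-binding S100 protein used as a marker of fibroblasts and of some macrophages, rose 8.34-fold, 3.23-fold and 6.77-fold. In Trp53(+/+) kidneys S100a4 measured 4.85, 4.92, 5.23, 5.91 and 5.91 after water and 7.58, 8.13, 8.36, 8.76 and 9.29 after AAI. Trp53(+/-) kidneys measured 6.25, 6.33, 6.39, 6.59 and 6.72 against 7.59, 8.08, 8.15, 8.41 and 8.52. Trp53(-/-) kidneys measured 6.26, 6.26, 6.35, 6.41 and 6.58 against 8.7, 9.1, 9.18, 9.31 and 9.37. The Trp53(+/+) water kidneys were lower than all other water kidneys, and AAI kidneys of each genotype lay well above their controls. The log2 changes were 3.06 ± 0.23 (SE, adjusted p = 7.77e-12), 1.69 ± 0.23 (adjusted p = 2.02e-05) and 2.76 ± 0.23 (adjusted p = 4.84e-11, limma).

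S100a6 (calcyclin), a small S100 protein that binds annexins and Cacybp, rose most of the 10, by 10.9-fold, 4.25-fold and 12.3-fold. In Trp53(+/+) kidneys S100a6 measured 6.16, 6.77, 6.89, 9.02 and 9.48 after water and 10.51, 10.71, 11.04, 11.06 and 12.25 after AAI. Values of Trp53(+/-) kidneys were 7.99, 8.12, 8.33, 8.76 and 10.04 against 10.57, 10.66, 10.77, 10.81 and 10.87. Values of Trp53(-/-) kidneys were 7.58, 7.73, 7.8, 7.95 and 8.38 against 11.22, 11.26, 11.52, 11.67 and 11.85. The Trp53(+/+) water arrays fell into 3 of at most 6.89 and 2 of at least 9.02, and 1 Trp53(+/-) water array (10.04) came close to the AAI arrays. The log2 changes were therefore less precise, at 3.45 ± 0.43 (SE, adjusted p = 1.25e-07), 2.09 ± 0.43 (adjusted p = 0.00158) and 3.62 ± 0.43 (adjusted p = 5.2e-08, limma). Without Trp53(+/+) water replicate 1, the array at 9.48, the Trp53(+/+) change was 3.90, and without replicate 5, the array at 6.16, it was 3.07.

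**Figure D2:**
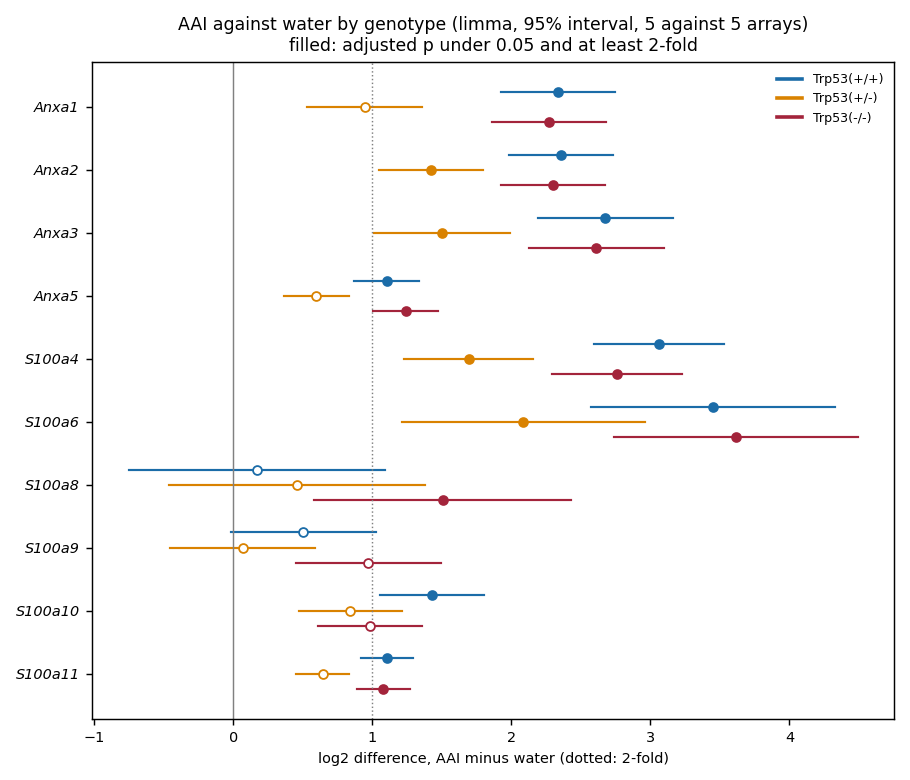
The log2 difference between AAI and water kidneys (horizontal axis) is plotted for each gene and genotype with its 95% interval from limma, and filled points passed an adjusted p under 0.05 and 2-fold (dotted line). The Trp53(+/-) difference was smaller than the Trp53(-/-) difference for 10 of 10 genes and smaller than the Trp53(+/+) difference for 9 of 10, S100a8 being the exception. The share of all genes with that order was not computed. Fewer of all genes were raised in Trp53(+/-) kidneys (0.7%, against 3.37% in Trp53(+/+) and 3.33% in Trp53(-/-)), where batch and treatment cannot be told apart.

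S100a8 and S100a9, which pair as calprotectin, a protein of neutrophils and inflamed epithelium that acts on Tlr4 and Ager, behaved differently from the other 8 genes. In Trp53(+/+) kidneys S100a8 measured 3.78, 4.19, 4.22, 4.88 and 6.07 after water and 3.69, 3.7, 4.33, 5.72 and 6.54 after AAI. The Trp53(+/-) kidneys had 3.54, 3.84, 4.08, 4.12 and 4.71 against 3.69, 4.13, 4.37, 4.83 and 5.55. The Trp53(-/-) kidneys had 3.29, 3.75, 3.88, 4.1 and 4.45 against 4.06, 5.56, 5.62, 5.76 and 6.01. The water and AAI arrays of Trp53(+/+) and Trp53(+/-) kidneys overlapped, and in Trp53(-/-) kidneys 4 AAI arrays lay above all water arrays and 1 did not. S100a8 rose 2.84-fold in Trp53(-/-) kidneys (log2 change of 1.50 ± 0.45 (SE), adjusted p = 0.0116), whereas the changes of 0.17 ± 0.45 in Trp53(+/+) (adjusted p = 0.827) and 0.46 ± 0.45 in Trp53(+/-) kidneys (adjusted p = 0.862, limma) did not pass. Its mean signal was below the 25th percentile of all clusters, and it was left out wherever dim probes were removed.

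In Trp53(+/+) kidneys S100a9 measured 5.7, 5.7, 5.87, 6.68 and 7.06 after water and 6.34, 6.47, 6.51, 6.71 and 7.52 after AAI. The Trp53(+/-) kidneys showed 5.48, 5.76, 5.8, 5.8 and 6.08 against 5.49, 5.51, 5.95, 6.08 and 6.21. The Trp53(-/-) kidneys showed 5.19, 5.36, 5.5, 5.72 and 5.94 against 5.49, 6.56, 6.77, 6.86 and 6.89. Again 1 Trp53(-/-) AAI array was low while the other 4 exceeded all water arrays of that genotype. It was the same array, replicate 5, for both genes. That array was also the lowest of its group for Anxa2 (7.15, next 7.76) and S100a4 (8.7, next 9.1). For Anxa5 (10.08, next 10.09) and S100a11 (11.97, next 11.98) it was the lowest by little. It was not the lowest for Anxa1, Anxa3, S100a6 or S100a10. Its median correlation with its own group (0.9782) was the lowest among the AAI arrays. S100a9 rose 1.96-fold in Trp53(-/-) kidneys (log2 change of 0.97 ± 0.26 (SE), adjusted p = 0.004, just short of 2-fold), and changed by 0.50 ± 0.26 in Trp53(+/+) (adjusted p = 0.153) and 0.07 ± 0.26 in Trp53(+/-) kidneys (adjusted p = 0.997, limma). Without replicate 5 the Trp53(-/-) changes were 1.84 for S100a8 and 1.23 for S100a9, the latter then above 2-fold. The difference between genotypes did not pass for either gene. For S100a8 the AAI effect was lower in Trp53(+/+) than in Trp53(-/-) kidneys by a log2 difference of -1.33 (95% interval of -2.64 to -0.03, adjusted p = 0.653), and for S100a9 by -0.47 (-1.21 to 0.27, adjusted p = 0.807, limma). Trp53(-/-) against Trp53(+/+) water kidneys, which differ in batch too, gave -0.73 for S100a8 and -0.66 for S100a9 (adjusted p = 0.464 and 0.213). The same genotypes after AAI gave 0.60 and -0.19 (adjusted p = 0.559 and 0.782, limma).

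**Figure D3:**
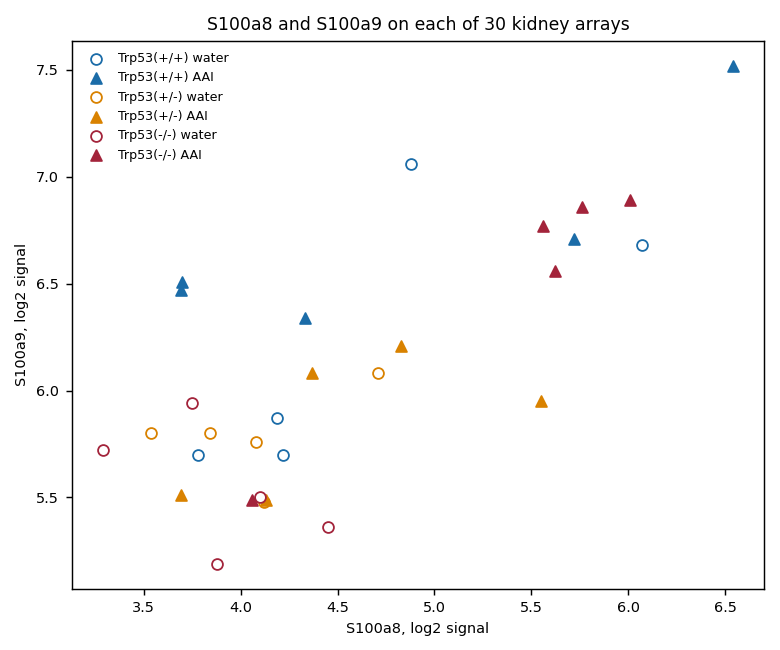
Each of the 30 arrays is placed by its log2 signal of S100a8 (horizontal axis) and S100a9 (vertical axis), with circles for water, triangles for AAI and a colour per genotype. The genes rise together across arrays (Pearson r = 0.742), and 4 of the 5 Trp53(-/-) AAI arrays sit together at high values while replicate 5 lies among the water arrays.

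Across the 30 arrays S100a8 and S100a9 correlated with each other (Pearson r = 0.742, and 0.694 for deviations from the group means) more than with the other 8 genes, where r ran from 0.311 to 0.514 over 16 pairs. Among the other 8 genes r ran from 0.827 to 0.97 over 28 pairs, and from -0.0368 to 0.693 (median of 0.403) for deviations from the group means. These are descriptions, since the arrays share treatment groups and a normalization. Neutrophil markers did not move with S100a8 and S100a9 as a list. Of 13 other neutrophil genes measured, Itgam, which macrophages also carry, was the one raised at least 2-fold, in Trp53(+/+) (log2 change of 1.91, adjusted p = 9.21e-10) and Trp53(-/-) kidneys (1.60, adjusted p = 3.25e-08, limma). Mmp8, neutrophil collagenase, rose by 0.74 in Trp53(-/-) kidneys (adjusted p = 0.00445), while Mpo and Padi4 fell by 0.38 and 0.39 (adjusted p = 0.0265 and 0.0316), all short of 2-fold. The list mean was 4.72 to 4.93 on Trp53(+/+) water arrays against 4.79 to 4.92 on AAI arrays. On Trp53(-/-) arrays it was 4.77 to 4.95 against 4.93 to 5.00. These means lay below the median signal of every array (5.89 to 5.99), and a change may be missed at such low signals. The part of neutrophils in the S100a8 and S100a9 signal was not tested.

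The genes whose signal was most like each of the other 8 over the 30 arrays were as follows. Lcn2, the kidney injury marker lipocalin 2, was closest to Anxa2 (r = 0.969). The actin-binding thymosin Tmsb10 led for Anxa5 (0.971), S100a4 (0.98) and S100a11 (0.972), with Actb next for Anxa5 (0.971) and the receptor kinase Axl next for S100a4 (0.979). The galectin Lgals1 led for S100a6 (0.947), followed by Sprr1a (0.946) and the epithelial transcription factor Klf5 (0.945). Capn2, a calcium-dependent protease, led for Anxa3 (0.968), Tmem45a for Anxa1 (0.97), and Tmbim1 for S100a10 (0.948), with Cdkn1a, the cyclin-dependent kinase inhibitor p21, next (0.94). S100a4 came after Actb for Anxa5 (0.97). For deviations from the group means, which leave out treatment and genotype, Smad3 led for S100a4 (0.852), the glutathione transferase Gsta4 for S100a6 (0.851) and the actin-binding profilin Pfn1 for S100a11 (0.776). Myf5 led for Anxa1 (0.698), Tgif1 for Anxa2 (0.716), Cnih4 for Anxa3 (0.813), Nars for Anxa5 (0.794) and Sqstm1 for S100a10 (0.775). Each r is the highest over all named genes on 30 arrays, so high values can arise by chance, and none was tested.

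The rest of the family moved little. Among 18 other annexin and S100 genes, none rose 2-fold, and Anxa13, an annexin of epithelial membranes, was the one that fell 2-fold, with log2 changes of -1.75 in Trp53(+/+) kidneys (adjusted p = 2.26e-05) and -1.65 in Trp53(-/-) kidneys (adjusted p = 5.01e-05), and -0.54 in Trp53(+/-) kidneys (adjusted p = 0.421, limma). The median change of these 18 genes was 0.06, 0.04 and 0.11 in the 3 genotypes. Without the minimum fold 4, 3 and 5 of the 18 rose, against 15.2%, 3.53% and 15.5% of all genes. Among them, Anxa6, a multi-domain annexin of membrane traffic, changed by 0.70, 0.39 and 0.88, Anxa4 by 0.67, 0.38 and 0.68, and S100a13 by 0.55, 0.29 and 0.59. Genes next to S100a4 and S100a6 in the S100 gene cluster of chromosome 3 changed little. S100a5, which lies between S100a4 and S100a6 in the RefSeq gene order, changed by -0.08, -0.06 and -0.25 (adjusted p = 0.699, 0.984 and 0.179), and S100a3, on the other side of S100a4, by 0.03, 0.12 and 0.14 (adjusted p = 0.914, 0.948 and 0.613). S100a7a, between S100a6 and S100a8, changed by 0.08, 0.20 and -0.08 (adjusted p = 0.746, 0.764 and 0.771, limma). S100a13 lies in this cluster too, as does S100a16, which changed by 0.62, 0.31 and 0.41 (adjusted p = 0.000401, 0.203 and 0.0181). Also in it, S100a14 changed by 0.41, 0.18 and 0.32 (adjusted p = 0.0549, 0.807 and 0.15), and S100a1 by 0.22, -0.01 and 0.31 (adjusted p = 0.106, 0.997 and 0.017, limma). S100a2 and S100a7l2 of the same cluster were not analysed here.

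**Figure D4:**
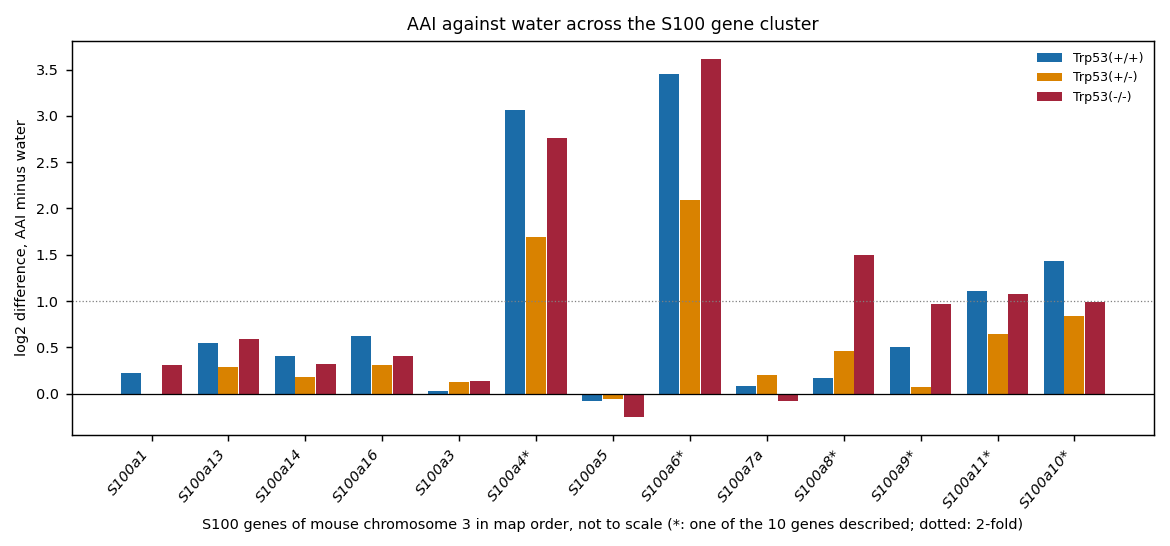
Bars give the log2 difference between AAI and water kidneys (vertical axis) for the measured S100 genes of mouse chromosome 3 in map order, not to scale, with 1 bar per genotype (5 against 5 arrays) and asterisks for genes of the 10. Tall bars of S100a4 and S100a6 stand next to bars near 0 of S100a3, S100a5 and S100a7a, and S100a10 and S100a11 lie at the end of the map.

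Partners and receptors of these proteins were given by a list of 17 genes, of which 13 were measured (Fpr1, Fpr2, Fpr3 and Ahnak were not analysed here). Of these 5, 3 and 4 rose 2-fold in the Trp53(+/+), Trp53(+/-) and Trp53(-/-) genotypes, and 1, 1 and 2 fell, with a median log2 change of 0.54, 0.14 and 0.52. Myoferlin (Myof), a membrane repair protein, rose by 2.15, 1.24 and 1.86 on the log2 scale (adjusted p = 3.23e-09, 0.000352 and 5.29e-08). The plasminogen activator Plat, which binds the Anxa2 complex, rose by 1.64, 1.02 and 1.02 (adjusted p = 6.21e-08, 0.000811 and 0.00014), and the urokinase receptor Plaur by 1.72, 1.10 and 1.53 (adjusted p = 4.59e-09, 0.000132 and 4.44e-08, limma). Urokinase itself, Plau, gave -0.02, 0.13 and -0.22 (adjusted p = 0.958, 0.961 and 0.464). Tlr4, a receptor of calprotectin, rose by 1.80 in Trp53(+/+) (adjusted p = 5.06e-11) and 1.56 in Trp53(-/-) kidneys (adjusted p = 8.99e-10), and by 0.71 in Trp53(+/-) kidneys (adjusted p = 0.00204, short of 2-fold). Ager, the other receptor, gave 0.54, 0.05 and 0.52 (adjusted p = 0.0497, 0.997 and 0.061, limma). The calcium channel Trpv5, which Anxa2 with S100a10 helps to reach the membrane, rose by 1.04 in Trp53(+/+) (adjusted p = 2.52e-05), and by 0.88 in Trp53(-/-) kidneys (adjusted p = 0.000244, short of 2-fold). Cd36, a fatty acid receptor, fell by 1.90, 1.09 and 1.26 (adjusted p = 2.42e-06, 0.0114 and 0.000687), and Tgm1, a transglutaminase that cross-links annexin and S100 proteins in skin, fell by 1.22 in Trp53(-/-) kidneys (adjusted p = 0.000142, limma).

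Markers of several cell types and of tubular injury were also measured, and the part of these cells in the rises of the 10 genes was not tested. Of 14 macrophage genes 8, 4 and 5 rose 2-fold in the 3 genotypes, with list means after water and AAI of 5.34 and 6.79 (Trp53(+/+)), 5.76 and 6.48 (Trp53(+/-)), and 5.75 and 6.99 (Trp53(-/-)). Of 10 fibroblast genes 8, 6 and 8 rose, with means, in the same order, of 6.41 and 8.71, 6.95 and 7.97, and 6.78 and 9.10. Of 9 genes of tubular injury 8, 5 and 7 rose, with means of 5.88 and 9.00, 6.86 and 8.58, and 6.71 and 9.62, and of 9 proximal tubule genes 8, 7 and 8 fell, with means of 11.04 and 8.42, 10.69 and 9.48, and 10.63 and 7.70. None of 10 T and NK cell genes passed in either direction, and 0 of 4 B cell genes changed 2-fold. The group means of these lists were low (4.71 to 4.91 and 4.83 to 5.15), so a change may be missed. Counts are by the same rule as for the 10 genes.

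The genotypes were then compared for the size of the AAI effect. In Trp53(+/+) kidneys it exceeded that of Trp53(+/-) kidneys for 2 of the 10 genes at an adjusted p under 0.05 (0.949% of all genes were higher by this rule, which has no minimum fold). Anxa1 differed by 1.39 on the log2 scale (95% interval of 0.81 to 1.97, adjusted p = 0.00681) and S100a4 by 1.37 (0.71 to 2.03, adjusted p = 0.0185, limma). Anxa2 (0.94, adjusted p = 0.0545), S100a11 (0.46, adjusted p = 0.0596) and Anxa3 (1.17, adjusted p = 0.0663) came near. Between Trp53(+/-) and Trp53(-/-) kidneys the effect was smaller in Trp53(+/-) for 2 genes (1.13% of all genes), Anxa1 (-1.33, 95% interval of -1.91 to -0.75, adjusted p = 0.00731) and Anxa5 (-0.64, -0.98 to -0.31, adjusted p = 0.0245, limma). Between Trp53(+/+) and Trp53(-/-) kidneys 0 of the 10 effects differed (0.104% of all genes did, in either direction). For the annexins the 95% intervals of that difference were -0.52 to 0.64 (Anxa1), -0.47 to 0.59 (Anxa2), -0.62 to 0.75 (Anxa3) and -0.47 to 0.19 (Anxa5), for S100a4 -0.36 to 0.96 and for S100a6 -1.41 to 1.07.

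Both comparisons with Trp53(+/-) kidneys carry the batch split of that genotype. Against Trp53(+/+) water kidneys, which lie in the same batch, Trp53(+/-) AAI kidneys had 7 of the 10 genes raised 2-fold, with log2 differences of 1.36 for Anxa1, 2.12 for Anxa2, 2.14 for Anxa3, 1.01 for Anxa5, 2.79 for S100a4, 3.07 for S100a6 and 1.39 for S100a10, and 0.85 for S100a11. That comparison changes genotype and treatment together, so it does not give the AAI effect alone. The share of all genes raised in it was not computed. With a batch term, which rests on the single unnamed Trp53(+/+) AAI array, a median of 0 genes was raised 2-fold in Trp53(+/-) kidneys over the 5 possible assignments. It was 7 with replicate 1 in the second batch and 0 with each other array. The share of all genes was not computed for these fits either. The term left 0 interactions under each of the 5 assignments. The S100a4 difference in AAI effect was no longer called without Trp53(+/-) AAI replicate 3 (1.23, adjusted p = 0.0532) or on the arrays of those genotypes alone (adjusted p = 0.0543, limma). The Anxa5 difference was not called without any 1 of 4 arrays, Trp53(+/-) AAI replicate 3, Trp53(+/-) water replicate 4, Trp53(-/-) AAI replicate 2 and Trp53(-/-) water replicate 2 (adjusted p of up to 0.0676, limma).

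**Figure D5:**
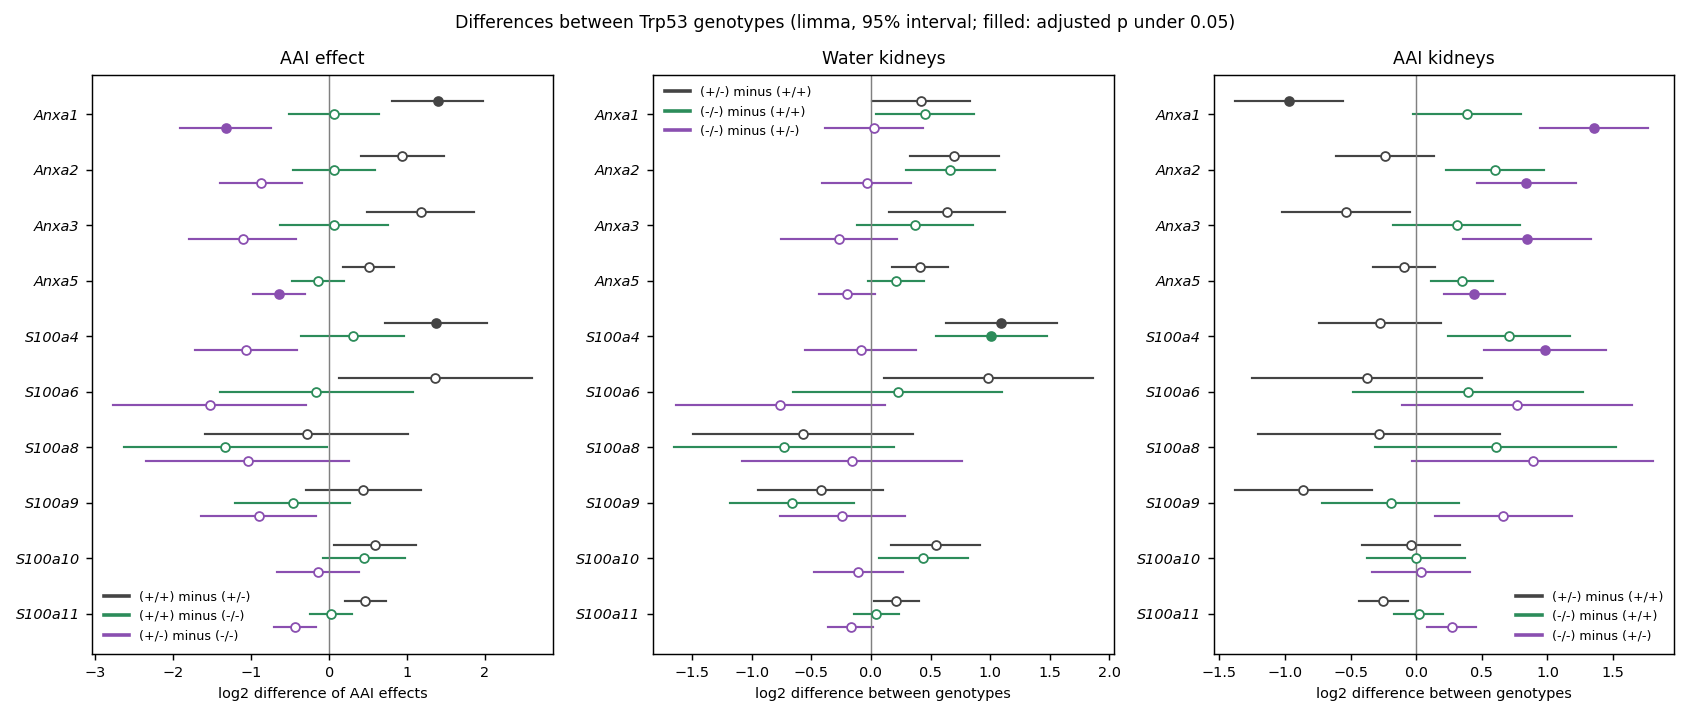
The 3 panels give, for each gene, log2 differences between genotypes with 95% intervals from limma, for the AAI effect, for water kidneys and for AAI kidneys, and filled points passed an adjusted p under 0.05. Anxa1 has filled points against Trp53(+/-) in the panels of the AAI effect and of AAI kidneys, S100a4 is the only filled gene in the panel of water kidneys, and no point for Trp53(-/-) against Trp53(+/+) is filled outside that gene.

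Within water kidneys S100a4 was higher in Trp53(+/-) than in Trp53(+/+) by 1.09 on the log2 scale (95% interval of 0.63 to 1.56, adjusted p = 0.0363) and in Trp53(-/-) by 1.01 (0.54 to 1.48, adjusted p = 0.0295, limma), and it was the 1 gene of the 10 to pass (0.221% and 0.425% of all genes were higher). Batch and genotype are the same split in both comparisons and cannot be told apart. The first call was lost without any 1 of 8 arrays, Trp53(+/+) water replicates 3, 4 and 5 and the 5 Trp53(+/-) water replicates (adjusted p of up to 0.127), and the second without any 1 of 7, the same Trp53(+/+) replicates and Trp53(-/-) water replicates 2, 3, 4 and 5 (up to 0.104, limma). With a batch term, the Trp53(-/-) difference had a median of 1.09 over the 5 assignments (-0.07 to 2.06, median adjusted p = 0.502, limma). It was -0.07 with Trp53(+/+) AAI replicate 1 in the second batch. Within batch 2, Trp53(-/-) and Trp53(+/-) water kidneys differed for 0 of the 10 genes, as for 0% of all genes, and S100a4 differed by -0.08 (-0.55 to 0.38, adjusted p = 0.997, limma).

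Within AAI kidneys Anxa1 was lower in Trp53(+/-) than in Trp53(+/+), with a log2 difference of -0.97 (95% interval of -1.38 to -0.56, adjusted p = 0.00784, limma), the 1 gene of the 10 to pass (0.479% of all genes were lower). All Trp53(+/-) and 4 of 5 Trp53(+/+) arrays of that comparison were of 1 batch. Fitted on the arrays of these groups alone, its adjusted p was 0.0889. Between Trp53(-/-) and Trp53(+/+) AAI kidneys 0 of the 10 genes passed (3.1% of all genes did), although without Trp53(+/+) AAI replicate 1 the count was 3 (share of all genes not computed). Anxa2 (0.60, adjusted p = 0.0691), S100a4 (0.71, adjusted p = 0.088) and Anxa5 (0.35, adjusted p = 0.1, limma) came nearest, all higher in Trp53(-/-). S100a9 (-0.19) and S100a10 (-0.004) went the other way. All Trp53(-/-) arrays and 4 of 5 Trp53(+/+) arrays there were of different batches. In Trp53(-/-) kidneys 5 of the 10 genes were higher than in Trp53(+/-) kidneys (5.53% of all genes): Anxa1 by 1.36 (adjusted p = 1.9e-05), S100a4 by 0.98 (adjusted p = 0.00359), Anxa3 by 0.84 (adjusted p = 0.0178), Anxa2 by 0.84 (adjusted p = 0.00197) and Anxa5 by 0.44 (adjusted p = 0.0096, limma). The Anxa3 call was lost without Trp53(-/-) AAI replicate 3 or 4 (adjusted p of up to 0.063). These groups lie in different batches, so batch and genotype cannot be told apart there. With a batch term, the median differences over the 5 assignments were 1.35 for Anxa1, 0.95 for Anxa2, 0.97 for Anxa3, 1.06 for S100a4 and 0.52 for Anxa5. By these medians none of the 5 genes was called (median adjusted p = 0.124, 0.269, 0.501, 0.276 and 0.378, limma). Counted per assignment, a median of 1 of the 10 genes (0 to 1) was called. Under the assignment that places Trp53(+/+) AAI replicate 1 in the second batch, the differences of Anxa2 (-0.16), S100a4 (-0.10) and Anxa5 (-0.02) turned sign. Tubular injury and fibroblast genes were also higher in the Trp53(-/-) group, with list means of 9.62 against 8.58 and 9.10 against 7.97.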

How the data were processed

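Kidney RNA of 30 mice was measured on 30 Clariom S mouse arrays. The deposited log2 signals, 1 per transcript cluster, were made by the authors with the Robust Multi-array Average (RMA) method in the Transcriptome Analysis Console (versions not given in the sources used here), so background correction, quantile normalization and summarisation were done before deposit and may compress large differences and low signals. Values ran from 1.92 to 14.04. Clusters were named through Entrez numbers (19572 named, 2634 unnamed), 67 whose symbol also named a brighter cluster were dropped, which left 22139 for testing.

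A linear model with a mean for each of the 6 groups was fitted to all 30 arrays in limma 3.58.1 (R 4.3.3, statmod 1.5.0), without a batch term, with 24 residual degrees of freedom and a prior of 7.21. All 12 comparisons gave two-sided p-values adjusted by the Benjamini-Hochberg method over all 22139. AAI against water was called at an adjusted p under 0.05 and 2-fold, other comparisons at an adjusted p under 0.05. The authors filtered in Qlucore on p under 0.05 and 2-fold, with a limit on the false discovery rate and batch effects removed. An alternative used that p and fold in a test without limma's prior, and neither the limit nor the removal. Replicate numbers do not pair arrays across groups (median correlation of deviations of -0.006 over 75 pairs with the same number). The number of arrays limits the precision.

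Members and lists were chosen with earlier results of these data known. Named genes are all 10 members, family and partner genes called in a comparison of AAI with water, the 3 genes most like a member by either measure (a selection of these is printed), and marker genes beside a member's value. Other family and partner genes were named after their values were seen. A further 10 listed genes were not analysed here. The lists were 18 family genes, 17 partners and markers of neutrophils, macrophages, T and NK cells, B cells, fibroblasts, endothelium, podocytes, proximal tubule, distal and collecting tubule and tubular injury. Of 6 endothelial genes 3, 0 and 3 rose 2-fold in the 3 genotypes, of 4 podocyte genes 0, and of 9 distal and collecting tubule genes 0, 0 and 1 rose and 1, 0 and 1 fell. Promoters and gene order are from RefSeq GRCm38.p6. The array table names no build.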

Additional observations from a re-analysis of the deposited data

Results flagged for a closer look

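A single array stood apart from the other 4 of its group, by Dixon's criterion, in 7 of 60 gene and group combinations, where chance alone flags about 5%. S100a8 and S100a9 were both low on Trp53(-/-) AAI replicate 5, at 4.06 (next array 5.56) and 5.49 (next array 6.56). Anxa2 was high on Trp53(+/+) AAI replicate 1 (8.03, next 7.16) and on Trp53(+/-) water replicate 2 (5.97, next 5.53), and low on Trp53(-/-) water replicate 5 (4.99, next 5.64). Anxa3 was high on Trp53(+/-) water replicate 3 (6.65, next 6.16) and S100a11 on Trp53(+/-) water replicate 1 (11.26, next 11.08).

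The AAI effect differed between genotypes by a tested interaction for 4 pairs of gene and comparison. Anxa1 (1.39) and S100a4 (1.368) had larger effects in Trp53(+/+) than in Trp53(+/-) kidneys, and Anxa1 (-1.327) and Anxa5 (-0.6438) smaller effects in Trp53(+/-) than in Trp53(-/-) kidneys, on the log2 scale. In each of them the Trp53(+/-) arrays are split by batch.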

How the results depend on the processing

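The counts of raised genes in Trp53(+/+) (8) and Trp53(-/-) kidneys (8) were 8 to 8 and 8 to 10 without single arrays, and 8 to 8 and 7 to 10 under the other alternatives. The Trp53(+/-) count of 4 (4 to 5 without single arrays) became 8 without a minimum fold and a median of 0 (0 to 7) with a batch term. It became 7 with Trp53(+/+) water controls of the same batch, which differ in genotype as well. For the AAI effect of Trp53(+/+) against Trp53(+/-), 2 genes became 4 without dim probes, 4 after quantile normalization, 4 with a trended prior, 5 with array weights and 0 with a batch term (1 to 5 without single arrays). For Trp53(+/-) against Trp53(-/-), 2 became 7 on the arrays compared alone, 4 with a trended prior, 5 with array weights, 0 with a batch term, 4 under the methods' p and fold without a prior and 1 with a 2-fold minimum (1 to 5 without single arrays). In water kidneys 1 became 2 on the arrays compared alone and 0 (0 to 1) with a batch term in both comparisons with Trp53(+/+) (0 to 3 for Trp53(+/-) and 0 to 2 for Trp53(-/-) without single arrays). In AAI kidneys the Trp53(+/-) against Trp53(+/+) count of 1 became 0 on the arrays compared alone, 0 under the methods' p and fold without a prior and 0 with 2-fold (1 to 2 without single arrays). The Trp53(-/-) against Trp53(+/+) count was 0 to 3 without single arrays. The Trp53(-/-) against Trp53(+/-) count of 5 became 1 with a batch term, 1 under the methods' p and fold without a prior and 1 with 2-fold (4 to 6 without single arrays). The cause was not tested. Among these alternatives, the share of all genes was computed only without a minimum fold.

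With the replicate number as a block, 1 gene instead of 0 passed between Trp53(-/-) and Trp53(+/+) AAI kidneys and both interaction counts of 2 became 3. The numbers are not shown to pair the arrays.

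With a batch term and Trp53(+/+) AAI replicate 1 in the second batch, 4 called differences turned sign. In Trp53(-/-) against Trp53(+/-) AAI kidneys Anxa2 was -0.1567, S100a4 -0.09699 and Anxa5 -0.02439, and S100a4 in Trp53(-/-) against Trp53(+/+) water kidneys was -0.06875. Their medians over the 5 assignments, 0.9541, 1.058, 0.5186 and 1.086 in that order, kept the sign of the main fit. The other signs that turned were of uncalled changes. S100a8 in Trp53(+/+) kidneys was -0.06135, -0.266 and -0.04171 without AAI replicate 1, AAI replicate 5 or water replicate 2, that is -0.266 to 0.5292 over single arrays. In Trp53(+/-) kidneys S100a8 was -0.1283 with a batch term and -0.1122 with controls of its batch, and S100a9 was -0.1885 and -0.3554, and -0.02576 to 0.1543 without single arrays (-0.01116 without water replicate 2).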
